A study of Mus musculus with 4 samples.

Results

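The acetylation mark H3K27ac was described at 7 long non-coding RNA genes known from brain: Malat1, Neat1, Miat, Rmst, Pantr1, Snhg11 and Sox2ot. The genes were taken from a list of names, and each name matched 1 gene of the GENCODE vM21 basic annotation, so that no symbol was absent. They are 7 of the 34568 long non-coding and protein-coding genes examined, and their neighbourhoods held 117 of the 72027 peaks in the replicated peak list. The chromatin came from left cerebral cortex. The donors were adult females of the hybrid strain B6CASTF1/J, which carries 1 genome copy from C57BL/6J and 1 from CAST/EiJ, at an age of 2 months and with no treatment named. The 4 samples form 1 group of 2 pools, I and J, each made from 4 biosamples and sequenced as 2 technical libraries. With no second tissue, genotype or treatment, no difference between conditions could be tested, and every value below is a description.

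Long non-coding RNAs are transcripts that are not translated, and several of these 7 work in the nucleus. Malat1 RNA is one of the most abundant nuclear RNAs and gathers at nuclear speckles, where splicing factors are stored. Neat1 RNA is the scaffold of paraspeckles, and Miat (also called Gomafu) forms nuclear spots in neurons. Snhg11 is named as a host of small nucleolar RNAs. Pantr1 lies beside Pou3f3, a transcription factor gene of upper-layer cortical neurons, Sox2ot is a long transcript unit with the stem cell and glial factor gene Sox2 inside it, and human RMST has been described as a partner of the SOX2 protein in neural stem cells. H3K27ac marks active promoters and enhancers, and a peak is a stretch of genome where immunoprecipitated reads pile up above background. A peak shows acetylated chromatin at a place and not the amount of RNA made there.

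The sequences at main starts of 5 of the genes set the scene for the peaks. Each line gives 250 bases before to 50 bases after an annotated start on mm10 (GRCm38), read 5′ to 3′ along the strand of the gene. For Snhg11 the 250 bases before the start are given. Capitals mark a match on either strand to one of the promoter elements searched for: the core element TATAAA, the letters GGGCGG known as the Sp factor motif, and the motif CCAAT of the NF-Y factor. Malat1 is shown because its start lay under a very wide peak, and Snhg11 because it had the second highest start-site signal of the members. Miat and Pantr1 are shown for the extremes of CpG content among the first starts that held a peak and are printed here. The first start of Rmst, not printed, had a lower ratio of observed to expected CpG than Miat (0.186 against 0.262). Sox2ot is shown because its first start was unmarked and its sixth was marked.
Malat1 start, chr19:5802623-5802922, minus strand: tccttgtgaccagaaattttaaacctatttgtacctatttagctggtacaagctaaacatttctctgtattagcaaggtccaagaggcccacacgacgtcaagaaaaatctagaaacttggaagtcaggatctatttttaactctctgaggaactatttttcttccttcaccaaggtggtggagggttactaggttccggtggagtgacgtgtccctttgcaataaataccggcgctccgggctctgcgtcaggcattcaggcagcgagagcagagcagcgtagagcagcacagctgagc
Snhg11 start, chr2:158375388-158375637, plus strand: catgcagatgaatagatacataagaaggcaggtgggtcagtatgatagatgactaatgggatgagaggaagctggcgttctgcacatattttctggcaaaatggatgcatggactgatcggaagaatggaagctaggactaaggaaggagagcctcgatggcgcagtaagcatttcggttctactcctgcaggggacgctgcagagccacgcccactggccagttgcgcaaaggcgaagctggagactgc
Miat start, chr5:112229346-112229645, minus strand: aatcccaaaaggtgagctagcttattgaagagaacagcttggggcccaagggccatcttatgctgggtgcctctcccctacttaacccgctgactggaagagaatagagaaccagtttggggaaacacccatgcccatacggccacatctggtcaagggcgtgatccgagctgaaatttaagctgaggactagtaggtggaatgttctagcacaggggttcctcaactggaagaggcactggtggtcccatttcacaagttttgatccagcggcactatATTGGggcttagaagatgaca
Pantr1 start, chr1:42694793-42695092, minus strand: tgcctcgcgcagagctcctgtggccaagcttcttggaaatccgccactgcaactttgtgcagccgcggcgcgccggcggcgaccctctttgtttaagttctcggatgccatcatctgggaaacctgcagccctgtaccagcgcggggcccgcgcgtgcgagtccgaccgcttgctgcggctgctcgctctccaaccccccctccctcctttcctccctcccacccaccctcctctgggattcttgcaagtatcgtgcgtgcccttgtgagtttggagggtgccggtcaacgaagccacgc
Sox2ot unmarked first start, chr3:34196501-34196800, plus strand: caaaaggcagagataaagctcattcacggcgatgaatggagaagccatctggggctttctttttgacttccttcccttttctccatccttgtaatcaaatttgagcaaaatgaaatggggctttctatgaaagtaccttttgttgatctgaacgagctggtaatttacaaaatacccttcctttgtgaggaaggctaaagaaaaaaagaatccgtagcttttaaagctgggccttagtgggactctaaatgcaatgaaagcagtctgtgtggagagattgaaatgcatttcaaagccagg
Sox2ot marked sixth start, chr3:34637924-34638223, plus strand: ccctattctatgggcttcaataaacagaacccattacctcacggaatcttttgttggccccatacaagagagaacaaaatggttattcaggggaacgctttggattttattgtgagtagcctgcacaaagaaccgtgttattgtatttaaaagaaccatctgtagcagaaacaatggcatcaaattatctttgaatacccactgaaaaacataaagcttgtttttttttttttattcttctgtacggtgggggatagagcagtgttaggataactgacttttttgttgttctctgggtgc

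All 7 genes had a peak within 1000 bp of an annotated transcription start site (TSS) in the replicated list, and all 7 also had one in the separate list of pool I and in that of pool J. For comparison, 25.9% of all 12813 long non-coding genes and 58.5% of the 21755 protein-coding genes had such a peak in the replicated list, and 21.8% of long non-coding genes had one in both pool lists. The members were picked as known brain genes, so that a share above the background was built into the choice. Over the highest start-site peak of each member, the median of the signals was 13.0 and that of the widths was 3825 bp, with 2293 bp in the pool J list alone and 3903 bp in the pool I list alone. Over the 3321 long non-coding genes with a start-site peak the medians were 6.95 and 1113 bp, and over protein-coding genes with one they were 8.86 and 1138 bp. The signal of a peak is the number its authors' caller assigned to it. Its scale is not stated in the labels or files, so it serves to rank peaks within a list.

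**Figure D1:**
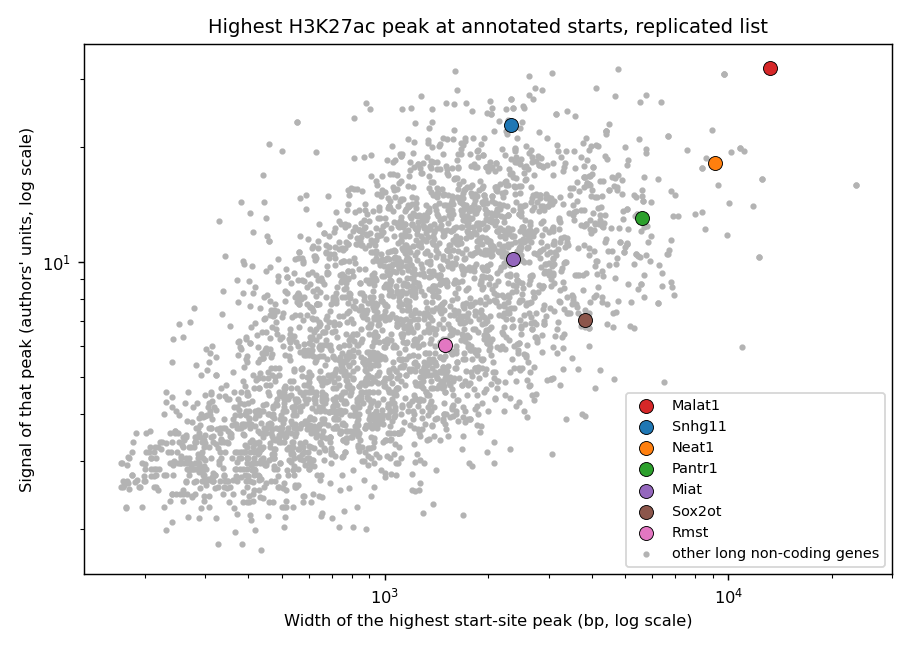
Width (x axis, bp, log scale) against signal (y axis, authors' units, log scale) of the highest peak at an annotated start, in the replicated list. Coloured points are the 7 members and grey points the other long non-coding genes with such a peak. Malat1 lies at the top right with 13197 bp and a signal of 32.1, while Rmst lies among the bulk of the grey points with 1493 bp and 6.06.

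The members spread from just below the middle to the top of the long non-coding genes with a start-site peak. In descending order the signal of the highest start-site peak was 32.1 for Malat1, 22.7 for Snhg11, 18.1 for Neat1, 13.0 for Pantr1, 10.2 for Miat, 7.03 for Sox2ot and 6.06 for Rmst. Malat1 was above 99.9% of the long non-coding genes with a start-site peak, Snhg11 above 98.3%, Neat1 above 94.8% and Pantr1 above 82.8%. Miat was above 69.1%, Sox2ot above 50.3% and Rmst above 43.5%, so the last of these stood below the middle of the distribution. In the pool lists, called from each pool alone, the order was the same. Their values were 38.7 in pool I and 24.7 in pool J for Malat1, 29.1 and 16.5 for Snhg11, 23.1 and 13.4 for Neat1, and 15.3 and 10.3 for Pantr1. They were 10.8 in pool I and 9.28 in pool J for Miat, 8.63 and 5.75 for Sox2ot, and 6.75 and 5.19 for Rmst. For Sox2ot these are different peaks: the pool I value is from near start 10, and the pool J value from starts 6 to 8. Near start 10 the pool J signal was 5.34. The pool I value was the larger for each of the 7 genes, but the median over all peaks of the lists was also larger, at 4.52 in pool I and 4.08 in pool J, and the scales of these lists cannot be equated.

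**Figure D2:**
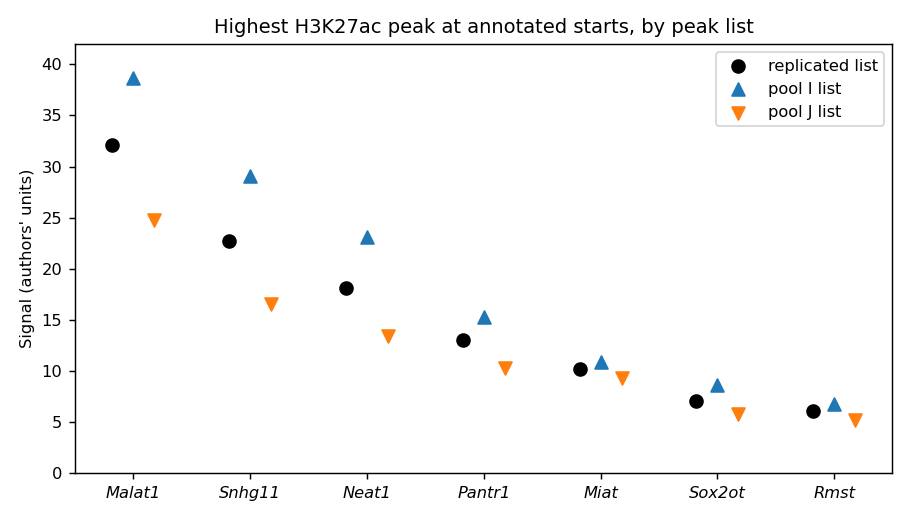
Signal of the highest start-site peak (y axis, authors' units) of each gene (x axis, in descending order) in the replicated list (black circles), the pool I list (blue triangles) and the pool J list (orange triangles). The order of the 7 genes is the same in the 3 lists, with Malat1 at 32.1, 38.7 and 24.7 and Rmst at 6.06, 6.75 and 5.19. For Sox2ot the highest peak of pool J lies at other starts than that of pool I.

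The 117 peaks in the neighbourhoods were 15 at annotated starts, 34 elsewhere in the gene bodies and 68 outside the genes within 100 kb. Peaks near both Malat1 and Neat1 were counted once. Sox2ot alone gave 6 of the start-site peaks and 21 of the body peaks, so the pooled values lean on this gene. Median signals were 6.86 at starts, 3.81 in bodies and 4.37 in the flanks, and median widths were 2329, 713.5 and 657 bp. Of the 117, 75 (64.1%) overlapped a peak in both pool lists, 30 matched a pool I peak without one in pool J, 6 the reverse, and 6 matched none. The share over all replicated peaks was 56.0%. At starts it was 80.0% (12 of 15), and the other 3 start-site peaks were in pool I alone. A nearer background is that of starts, counted by gene and not by peak. Among all long non-coding genes, 3321 had a start-site peak in the replicated list and 2791 had one in both pool lists. In gene bodies and in the flanks the share of peaks in both pool lists was 61.8% each. The pool I list held 69835 peaks and the pool J list 49839. Of the flank peaks, 22 lay within 1000 bp of the start of a protein-coding gene. Which gene their signal belongs to was not tested.

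Marker genes were looked up as a check of the labelled tissue. Of 32, 22 had a start-site peak, beside the 58.5% of all protein-coding genes that had one, so that the count by itself says little about which cells were present. With a peak were all 5 of excitatory neurons, both of telencephalon, all 3 of interneurons and all 3 of endothelium. Astrocytes, oligodendrocytes and microglia had 3 of 4 each. None of the 3 hindbrain, 2 choroid plexus and 2 liver genes had one. The peaks mix the cells of the tissue, and whether more cells carry the mark or each cell carries more of it cannot be told apart.

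Malat1 and Neat1, which make RNAs of neighbouring nuclear bodies, had the widest peaks of the 7. Malat1 (ENSMUSG00000092341.3) spans chr19:5795690-5802672 on the minus strand, 6983 bp in length. Its start-site peak, at chr19:5794885-5808081, covered 13197 bp with a signal of 32.1 and a −log10 q of 209.5. It ranked 7 by signal and 5 by width among the 72027 replicated peaks. No start-site peak of another long non-coding gene was higher, and the non-coding Gm37376 has a start near this same peak. In pool I this region was 1 peak of 15114 bp. In pool J it was split into 4 peaks, the highest 7290 bp wide with a signal of 24.7, which together covered 95.5% of the replicated peak. The summit lay upstream, at -561 bp from the start.

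The Malat1 peak covered the gene from end to end, 100% of its length in the replicated and pool I lists and 94.8% in pool J. Peaks thus lay over the transcribed part and not over the 5′ promoter alone. Starts 3 and 4 of Malat1, at 5208 and 5720 bp downstream of the first, also lay under this peak. Signal there cannot be assigned to the gene body apart from these starts. The signal was not even along the gene in pool J. There the peak from 4.283 to 6.705 kb downstream of the 5′ end, which holds starts 3 and 4, had 5.53, against 24.7 for the one over that end. Among the 3321 long non-coding genes with a start-site peak, 217 were fully covered, and the median gene had 17.0% of its length under peaks. Full cover was mostly found in shorter genes: of the 1269 at least as long as Malat1, 1 was fully covered, and that 1 was Malat1. No other member came near it. Neat1 had 28.9% of its length under replicated peaks, Snhg11 21.6%, Miat 21.3%, Pantr1 14.3%, Sox2ot 5.67% and Rmst 2.27%.

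**Figure D3:**
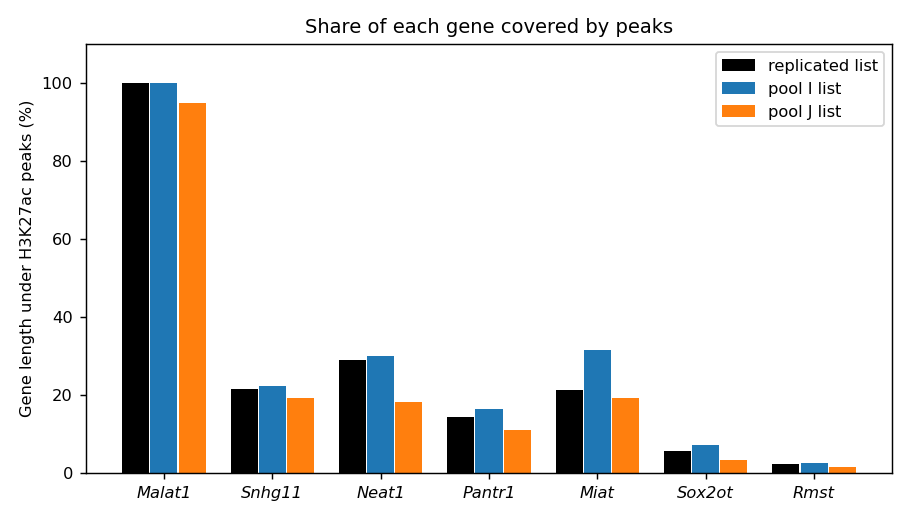
Share of each gene's length under H3K27ac peaks (y axis, percent) in the replicated (black), pool I (blue) and pool J (orange) lists, with the genes in descending order of start-site signal. Malat1 stands at 100%, 100% and 94.8%, and the next, Neat1, at 28.9%, 30.1% and 18.1%.

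Neat1 (ENSMUSG00000092274.3), at chr19:5824708-5845478 on the minus strand, lies 22035 bp upstream of Malat1 on the same strand. Its start-site peak at chr19:5841947-5851125 covered 9179 bp with a signal of 18.1, rank 723 by signal and 42 by width, and was also near the start of Frmd8os, a non-coding gene. In pool I it was part of a peak of 11278 bp with a signal of 23.1, and in pool J it was split into 3 peaks, the highest 4115 bp wide at 13.4. The summit lay outside the gene, at -814 bp from the nearest start. Of its 4 annotated starts, the 3 at the 5′ end lay under this peak. The fourth, 17466 bp downstream, had no peak in its window in the replicated or pool lists, and the nearest replicated peak was 3209 bp away. The 3 other peaks that touched the gene body had signals of 5.07, 3.07 and 2.67, all below the peak at its 5′ end. The one of 3.07 lay mostly outside the gene, with its summit beyond the 3′ end.

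The stretch between the Malat1 peak and Neat1 was itself largely acetylated. It is 16626 bp long, and 7 replicated peaks covered 81.5% of it, against 88.8% in pool I and 71.1% in pool J. The largest was 6362 bp wide with a signal of 17.4, close to that of the Neat1 start itself, and its signal was 25.2 in pool I and 17.0 in pool J. The next was 2975 bp wide at 15.1, with 18.3 in pool I and 12.6 in pool J, followed by one of 1733 bp at 9.63. None of the 3 had an annotated start within 1000 bp. The peak at the start of Frmd8, a protein-coding gene upstream of Neat1, was narrower and lower, with 7.85 over 1088 bp.

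Miat (ENSMUSG00000097767.8), at chr5:112213228-112229395 on the minus strand, has 1 annotated start. Its peak at chr5:112227087-112229447 was 2361 bp wide with a signal of 10.2, with 10.8 (2403 bp) in pool I and 9.28 (2293 bp) in pool J. The peak lay almost wholly inside the gene, with its summit 920 bp downstream of the start, in an intron. That distance is from the GENCODE start, and the RefSeq promoter window of Miat lies further downstream, at chr5:112228899-112229198. A second peak in the gene body, 1132 bp wide with a signal of 6.17, lay at the start of Gm26953, another non-coding gene. All 17 flank peaks were on the upstream side, and 5 of them lay at the starts of the coding genes Crybb1, Tpst2 and Tfip11, the highest being that of Tfip11 at 11.8.

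Snhg11 (ENSMUSG00000044349.15), at chr2:158375638-158386145 on the plus strand, had a high and compact peak. It is classed as protein-coding in GENCODE vM21 basic and as a long non-coding RNA in RefSeq, so it is not among the 12813 long non-coding genes of the background, and the other 6 members are. Its peak at chr2:158375158-158377486 was 2329 bp wide with a signal of 22.7, rank 196 of all replicated peaks, with 29.1 (2853 bp) in pool I and 16.5 (2002 bp) in pool J. The summit lay 261 bp downstream of the start. The width was below that of Pantr1 and Sox2ot although the signal was above theirs. A peak of 416 bp with a signal of 3.75 followed it in the gene. The surroundings were sparse, with 5 flank peaks, of which the highest were the pair at the start of Ralgapb, at 7.01 and 7.87. The start of Snhg17, another host gene of this family, had a peak of 4.07.

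Pantr1 (ENSMUSG00000060424.14), at chr1:42590782-42694842 on the minus strand, had its main peak close to Pou3f3. The start-site peak at chr1:42689828-42695425 was 5598 bp wide with a signal of 13.0, with 15.3 in pool I and 10.3 in pool J, and the starts of Pou3f3 and of the non-coding AC122898.1 lay within 1000 bp of it. A second start-site peak, 1192 bp wide at 9.06, also lay within 1000 bp of both these starts. The Pou3f3 start lay under this second peak and not under the main one. The first Pantr1 start lay under the main one. Signal in these peaks cannot be assigned to Pantr1 or to Pou3f3. Pantr1 was the 1 member whose highest start-site peak had a coding start within 1000 bp. Over long non-coding genes with a start-site peak the share was 52.8%.

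Parts of the Pantr1 gene away from these 5′ peaks were acetylated too. The highest peak of the locus was not at a start but in an intron, at chr1:42683770-42688038, 6226 bp downstream of the nearest start by its summit. It was 4269 bp wide with a signal of 15.1, with 18.5 in pool I and 11.5 in pool J. The fifth annotated start, 27851 bp downstream of the first, had a small peak of its own, 723 bp wide at 3.56, with 4.71 in pool I and 3.33 in pool J. Upstream, on the other side of Pou3f3, peaks at the start of the non-coding gene Pantr2 had signals of 6.86 (3626 bp) and 10.2 (1475 bp). None of the 12 flank peaks lay at a protein-coding start.

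Sox2ot (ENSMUSG00000105265.4), at chr3:34104270-34682619 on the plus strand, is the longest of the 7 with 578350 bp, and its peaks gathered at the far end around Sox2. Of its 10 annotated starts, 8 had a peak in the window. The first start, shown above, had none, and the nearest replicated peak was 35408 bp away. The fifth had none either, at 28941 bp. The first start lies 92.481 kb inside the gene, so it is not the 5′ end of the gene. At that 5′ end the replicated list had no peak in the window, while the pool J list had one at 0.196 to 0.402 kb with a signal of 3.53. Starts 2 to 4 shared 1 weak peak, 340 bp wide at 2.85, which was in the pool I list and not in that of pool J. The sixth to eighth starts lay under a peak at chr3:34636846-34639338, 2493 bp wide at 6.86, with 7.98 in pool I and 5.75 in pool J. The highest start-site peak, at chr3:34661557-34665381 near start 10, was 3825 bp wide at 7.03, with 8.63 in pool I and 5.34 in pool J, and the start of the non-coding gene Gm42693 lay within 1000 bp of it.

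Within 25 kb of the Sox2 start lay 18 of the 27 peaks at and in Sox2ot, a distance chosen after the peaks were seen. They covered 69.5% of the 35150 bp from the first to the last of them, and 14 of the 18 were in both pool lists. Their signals were modest, from 3.03 to 7.03 with a median of 4.24. The 2 peaks within 1000 bp of the Sox2 start, which lay between them, had 4.86 and 4.21. Both were below the peaks at starts 6 and 10 of Sox2ot. A second group lay far upstream in an intron, where a peak at chr3:34441605-34445541, with its summit 208530 bp from the Sox2 start, was 3937 bp wide at 6.56. In pool I it was part of a peak of 5821 bp at 9.21, and in pool J it was split into 3 peaks, the highest at 5.19. The flanks held 2 peaks, at the starts of the coding genes Fxr1 (signal 10.01) and Dnajc19 (5.67).

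Rmst (ENSMUSG00000112117.1), at chr10:92071037-92165170 on the minus strand, had the fewest peaks and the lowest signal. Its 5 peaks were 2 at starts, 1 in the body and 2 in the flanks, and 1 of the 5 was in both pool lists. That one, at chr10:92162120-92163612, was 1493 bp wide at 6.06, with 6.75 in pool I and 5.19 in pool J, and it was shared with the non-coding gene Gm26700. The peak nearest the 5′ end was 318 bp wide at 3.17, with 3.48 in pool I and none in pool J. Of 11 annotated starts, the 6 within 2030 bp of the 5′ end had a peak in the window, and the other 5 had none, with the nearest peak 24684 to 85347 bp away. The nearest protein-coding start to these peaks, that of Nedd1, was at least 474929 bp off.

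**Figure D4:**
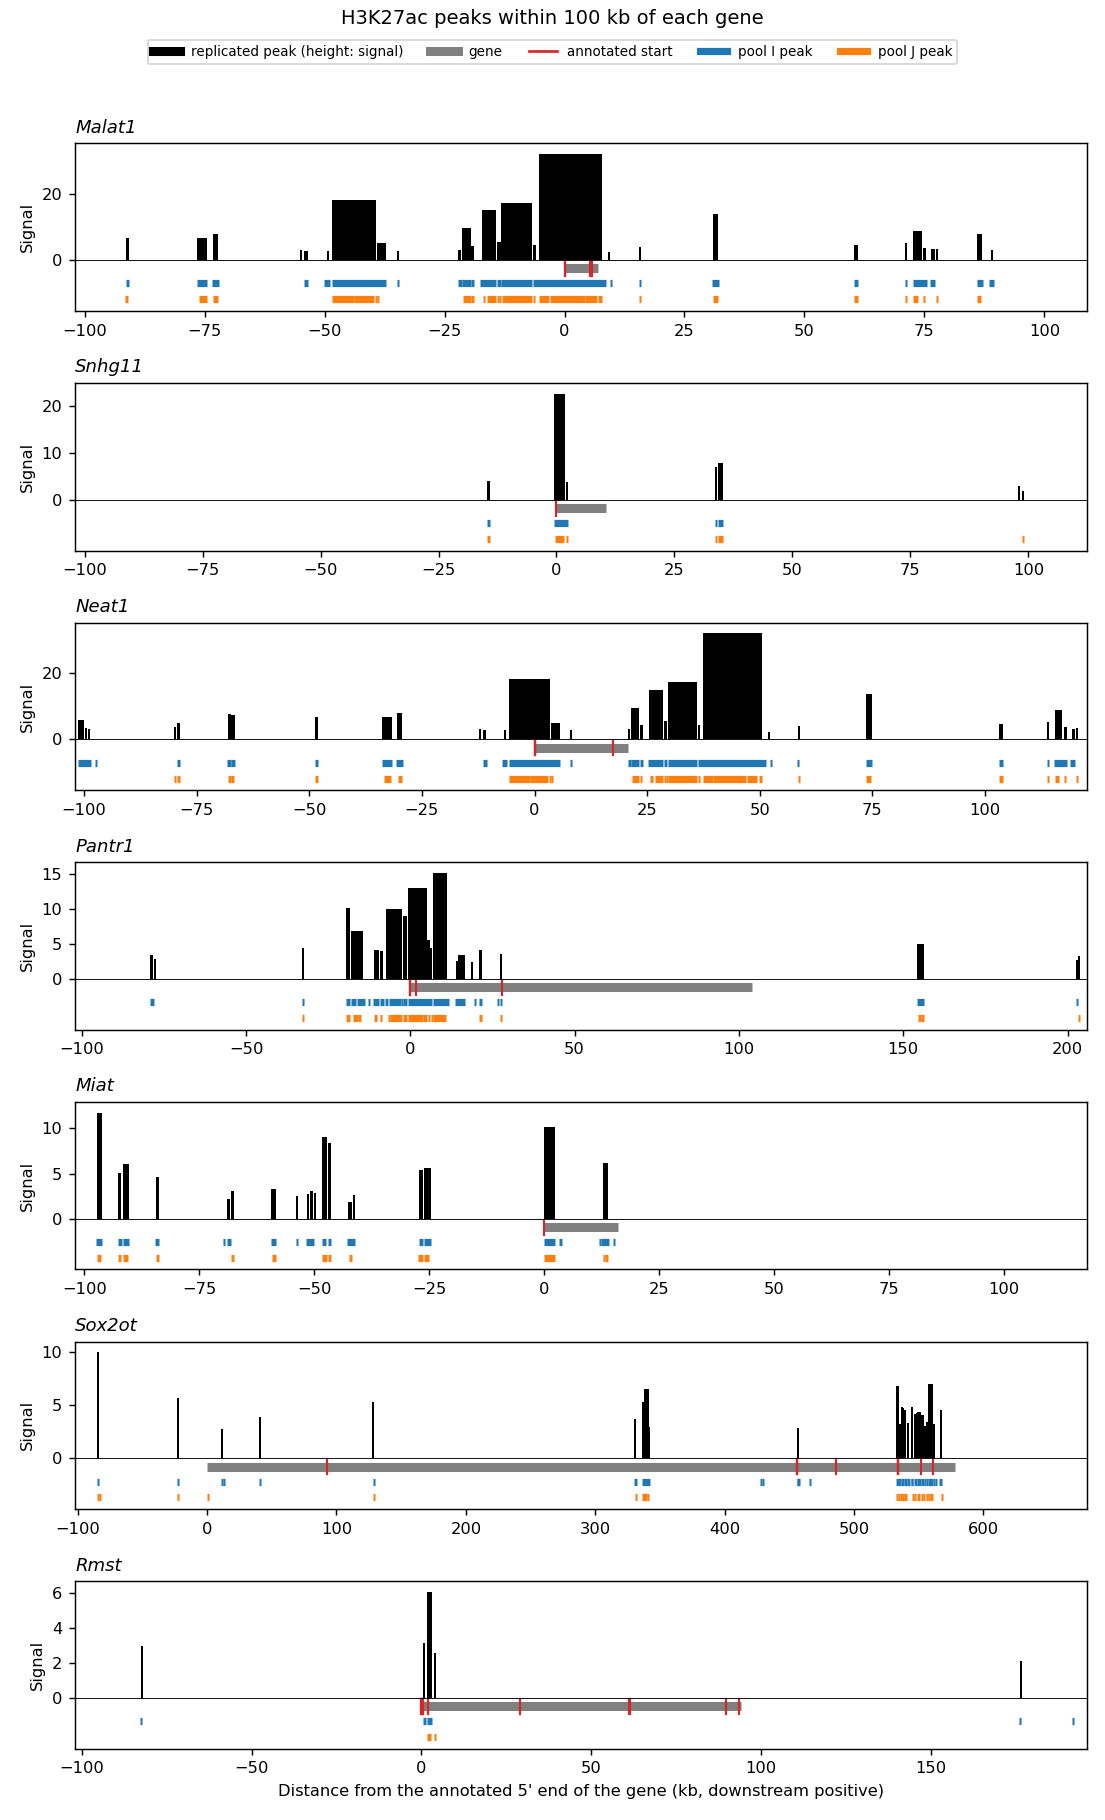
Peaks within 100 kb of each gene against distance from the annotated 5′ end (x axis, kb, downstream positive). Black bars are replicated peaks with the signal as height, the grey line is the gene, red ticks are annotated starts, and blue and orange segments are peaks of pool I and pool J; narrow peaks are drawn at a minimum width. Malat1 lies wholly under 1 bar, the bars of Sox2ot gather at the 3′ end of the gene, and Rmst shows 5 bars.

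Over the 7 genes, 28 of 36 annotated starts had a peak in the window, and 21 of them lay directly under a peak. The share over all annotated starts of long non-coding genes was 27.1%. The 8 unmarked starts belonged to Rmst (5), Sox2ot (2) and Neat1 (1). Starts of 1 gene share its peaks and are not independent of each other.

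MicroRNAs lie inside 2 of the genes, and their places differed in acetylation. In the RefSeq annotation Sox2ot holds Mir1897 in an exon at chr3:34638464-34638542, under the peak of the sixth to eighth starts. Rmst holds Mir135a-2, 83318 bp from the nearest peak, and Mir1251, 23753 bp from it. The mature sequences from RefSeq, apart from miR-135a-2-3p, are shown with the seed, bases 2 to 8, in capitals. The seed sets which messenger RNAs a microRNA pairs with.
miR-1897-3p: uCAACUCGuucuguccggugag
miR-135a-5p: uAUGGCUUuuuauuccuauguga
miR-1251-5p: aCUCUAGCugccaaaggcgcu
miR-1251-3p: cGCUUUGCucagccaguguag
These 4 seeds differ from each other.

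CpG content of the printed starts did not follow the order of the signal. The ratio of observed to expected CpG was 0.604 for Malat1, 0.707 for Snhg11, 0.863 for Pantr1 and 0.262 for Miat. In Sox2ot it was 0.371 at the marked sixth start and 0.327 at the unmarked first start. Over the 36 starts the median was 0.331, with 0.341 in the 28 with a peak and 0.271 in the 8 without. For long non-coding starts in general it was 0.508 with a peak and 0.204 without, so that the 28 marked starts of these 7 genes, of which 6 belong to Rmst and 8 to Sox2ot, had a lower median than marked long non-coding starts at large.

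Short motifs were searched at the starts. In the windows of 250 bases before to 50 after the start, TATAAA was found at 4 of 36 starts (11.1%, against 16.2% of long non-coding starts), GGGCGG at 4 (11.1%, against 16.3%) and CCAAT at 11 (30.6%, against 35.9%). Of the 28 starts with a peak, 4 (14.3%) held TATAAA, 4 (14.3%) held GGGCGG and 7 held CCAAT, against 9.89%, 39.0% and 32.7% of long non-coding starts with a peak. The side on which TATAAA fell thus differed between all starts and marked starts. Windows of nearby starts overlap, however, so the same element can be counted more than once. Starts 1, 2 and 3 of Neat1, which lie within 219 bp, hold the same TATAAA, and starts 1 and 2 the same GGGCGG. The other start with TATAAA was start 9 of Sox2ot. These shares therefore do not count separate elements. No member window held TGACGTCA (CRE), CACGTG (E-box) or TGANTCA (AP-1), which 1.13%, 5.49% and 9.0% of long non-coding starts held. Both strands were searched. Among the sequences printed above, that of Miat holds a CCAAT match on the opposite strand, 29 bases after the start, while the Malat1, Snhg11, Pantr1 and both Sox2ot sequences have no capitals. A match is a run of letters and not a bound site.

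The long non-coding gene with the most alike start-site peak is given for 6 of the members, found by the root mean square difference in percentile of signal and width over the 3 lists, 6 values in all, among 2782 genes. For 4 members it was a neighbour at the same peak: Gm37376 for Malat1, Frmd8os for Neat1, Gm26700 for Rmst and AC122898.1 for Pantr1. For Snhg11 it was Gm49086, at 0.608 percentile points, whose peak is shared with the coding gene Zfp219. For Sox2ot it was Arhgap27os1 beside Arhgap27, at 3.13 points. Among genes at another peak, a limit set after the values were seen, Malat1 was most like 5031425E22Rik, which shares its peak with Kmt2e and had a signal of 27.2 over 5780 bp. Neat1 was most like 1700021N21Rik, with 19.3 over 10221 bp.

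Other well-known long non-coding genes give a scale for these values. Of 31 listed, 29 were in the annotation (Norad and Oip5os1 were not found under these names), and 19 had a start-site peak, 16 of them in both pool lists, beside the 25.9% and 21.8% of all long non-coding genes. These genes too were listed as well known, and the groups are small. Hosts of small RNAs had 7 of 8. Mir124a-1hg, host of a neuronal microRNA, had 18.7 over 8625 bp, close to Neat1 in both measures, and Mir9-3hg had 14.9 over 6997 bp, while Snhg14 had none. Nuclear or regulatory genes had 6 of 7, led by Lncpint with 21.3 over 6671 bp. Xist, the RNA of the inactive X chromosome, had 7.36 over 1323 bp, and Crnde had none. Imprinted genes had 4 of 7, with Peg13 at 13.0, Meg3 at 10.6, Kcnq1ot1 at 6.36 and Airn at 2.87, and Rian, Mirg and H19 had none. Beside forebrain homeobox genes, Pantr2 at 10.2 and Dlx1as at 3.17 had a peak, and Dlx6os1 and Six3os1 had none. The 3 genes of the Hox clusters, Hotair, Hottip and Hotairm1, had none.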

How the data were processed

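The data are ChIP-seq of H3K27ac in 2 pools of left cerebral cortex. The authors deposited 4 narrowPeak lists on mm10: per the file descriptions, a replicated and a pseudoreplicated list from both pools and 1 pseudoreplicated list per pool. The libraries of a pool were merged before peaks were called, so no value stands for a single library. The signal and the −log10 q of each peak are the deposited values of the authors' peak caller. The aligner, the caller, their versions, the scale of the signal and the handling of reads from the CAST/EiJ genome are not stated in the labels or files used, and neither is the number of reads. The depth of each library is thus unknown, and no interval for counting error is given.

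Genes and starts came from GENCODE vM21 basic on 19 autosomes and the X chromosome; sequences and microRNAs came from RefSeq on GRCm38. All 7 members matched RefSeq by symbol, and 3 of them (Malat1, Miat and Snhg11) also had a RefSeq promoter window. That window was the one used here for Malat1 only. It differed for Miat (chr5:112228899-112229198) and for Snhg11 (chr2:158375463-158375762), and a replicated peak lay over all 3. The starts described are those of GENCODE. A start-site peak touched the window reaching 1000 bp to each side of an annotated start, a body peak the rest of the gene, and a flank peak the 100 kb beyond. Peaks of different lists were matched by an overlap of at least 1 bp. Overlaps were computed with Python 3.11.15, pandas 2.3.3 and numpy 2.4.6, and the overlap code was tested on simulated intervals. No statistical test was made, since there is 1 group. The genes named are the members, every gene starting within 1000 bp of their start-site peaks, the nearest coding genes, the most alike gene of 6 members, and the list of other long non-coding genes. The members and lists were chosen with earlier results of these data known. The alternatives tried were the pseudoreplicated list, each pool alone, a −log10 q of at least 5, start windows of 500 and 2500 bp, the 5′ end of the gene alone, flanks of 50 and 200 kb, and overlaps of at least 50%. A few neighbouring or marker genes and 1 start sequence are not reported here.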

Additional observations from a re-analysis of the deposited data

How the results depend on the processing

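All 7 genes kept a start-site peak in the pseudoreplicated list, in either pool alone, at a −log10 q of at least 5 and with windows of 500 and 2500 bp. With the 5′ end of the gene as the only start, 6 kept one in the replicated list. Sox2ot lost it there, although the pool J list had a peak of 3.53 at that end. The highest start-site signal of Rmst fell to 3.17. At a −log10 q of at least 5, body peaks numbered 21 (34 without this limit), flank peaks 40 (68 without it), and 95.8% of peaks were in both pool lists (64.1% without it). With flanks of 50 and 200 kb there were 32 and 105 flank peaks. With an overlap of at least 50% of both peaks, 45.3% of peaks were in both pool lists. When each pool's own list took the place of the replicated list (leaving out one pool at a time), genes with a start-site peak stayed at 7, body peaks ranged from 31 to 32 and flank peaks from 55 to 59. The share in both lists ranged from 61.5% (pool I list, without pool J) to 92.0% (pool J list, without pool I). The median signal percentile of the highest start-site peak ranged from 93.1 to 95.8 (96.1 in the replicated list) and the median width from 2293 to 3903 bp (3825 bp). Where a stricter limit, another distance or a shorter list did not by itself change what was counted, the cause of a shift was not tested. In all, 44 values were recomputed under 11 settings. No paired analysis was possible because there is 1 group and no test. The unknown depth limits what a missing peak means, for example the absence of some peaks from the pool J list.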
